A study of Mus musculus with 2 samples.

Results

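Epithelial-mesenchymal transition (EMT) is controlled by a small set of transcription factors and read out by a few structural and splicing genes. The 10 genes described here were taken by name from the deposited expression table: the EMT transcription factors ZEB1, ZEB2, SNAI1, SNAI2 and TWIST1, the mesenchymal genes VIM and CDH2, and the epithelial genes CDH1, ESRP1 and ESRP2. Each symbol matched 1 row of the 62573 rows, and 0 of the 10 lay in a locus merged with another gene. The rule takes genes by name, but the members were proposed with earlier results of these libraries in view, among them the values of ZEB1 and ESRP2. By their known roles 7 members are called mesenchymal and 3 epithelial.

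The samples were 2 patient-derived xenografts, that is, human tumors passed on as grafts in mice that lack T cells. Both groups were gastroenteropancreatic neuroendocrine tumors propagated in athymic nude mice of the Foxn1nu strain, with no treatment given in the labels. The primary group was 1 library from a primary tumor carried in the flank, and the metastatic group was 1 library from a metastatic tumor carried in the peritoneal cavity, so tumor origin and graft site cannot be told apart. With 1 library in each group no difference could be set against a spread between replicates, and no test was run. The ages and number of the mice are not in the labels, and neither is a statement that both tumors came from 1 patient.

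EMT factors bind E-box sequences and repress epithelial genes. Their best-known target is CDH1, the gene of the adhesion protein E-cadherin. ZEB factors and the miR-200 microRNAs repress each other, which gives the pathway the form of a switch. ESRP1 and ESRP2 encode RNA-binding proteins that set epithelial splice patterns, and both are known to be repressed by ZEB factors in carcinoma cells. CDH2 encodes N-cadherin, the cadherin of neural and mesenchymal cells, and VIM encodes vimentin, the intermediate filament of mesenchymal cells. Neuroendocrine cells and neural cells can carry N-cadherin without an EMT.

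Values were FPKM, which divide fragment numbers by transcript length and by the number of mapped fragments, so levels can be compared between genes of different length. Their sum was 784987 in the primary library against 885319 in the metastatic one, and read depth is unknown. A gene was counted as expressed at 1 FPKM or more in at least 1 library, which 13811 labels were. Log2 ratios are log2((metastatic + 1)/(primary + 1)), which understates differences of low genes. Their median over expressed labels was 0.03. After rescaling both libraries to 1 common sum it was -0.13. Of 13 neuroendocrine markers 6 were expressed in rows of their own, with a median of -1.21. PCSK1 stood at 19.9 FPKM in the primary tumor against 2.74 in the metastatic one, INSM1 at 3.54 and 0.271, SCG2 at 2.62 and 0.340, and CHGB at 1.64 and 0.336. The other expressed markers were UCHL1 at 225 and 705 FPKM and SYP at 1.63 and 1.96, while CHGA, a defining marker, was listed at 0 in both. LDHA, RPL7A and RPS25, 3 genes that nearly every cell uses, were also listed at 0 in both libraries, so a 0 in this table may be an estimate that failed.

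The expressed mesenchymal members stood lower and the expressed epithelial members higher in the metastatic tumor, by differences that were mostly under 2-fold. VIM was nearly level, at a log2 ratio of -0.05, and TWIST1, below the 1 FPKM minimum, stood higher. Of the 10 members 8 were expressed. The 6 expressed mesenchymal members all had a log2 ratio below 0, which 47.7% of expressed labels had, with a median of -0.47. Both expressed epithelial members, CDH1 and ESRP2, had a log2 ratio above 0, which 51.8% of expressed labels had, with a median of 1.04. The medians of the 2 groups thus lay 1.50 log2 units apart. The epithelial median rests on 2 genes, and the values of ZEB1 and ESRP2 were known when the members were proposed. The sign of each member was kept under each of the scalings and pseudocounts tried.

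**Figure D1:**
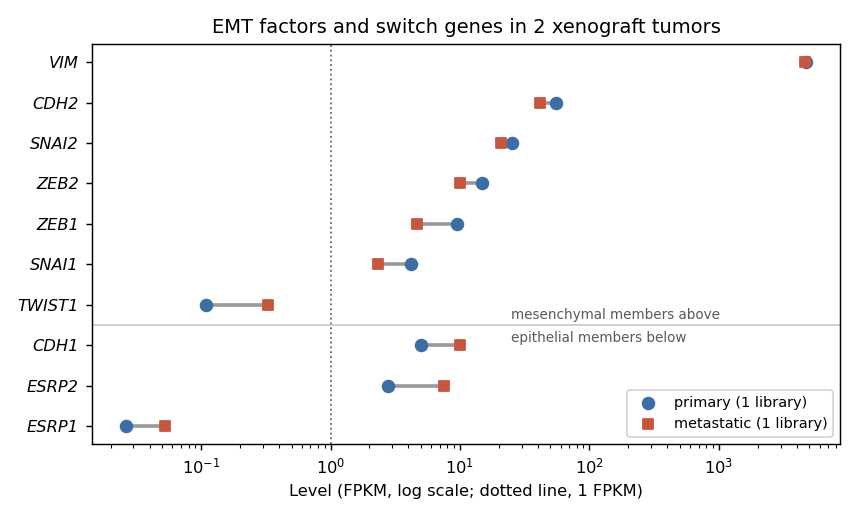
Level of each member in the primary library (blue circle) and the metastatic library (red square), in FPKM on a log axis. VIM, CDH2, SNAI2, ZEB2, ZEB1 and SNAI1 lie further left in the metastatic library, while CDH1 and ESRP2 lie further right. TWIST1 and ESRP1 stay below 1 FPKM.

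Among the transcription factors, SNAI2 was the most abundant. SNAI2, which encodes the zinc-finger repressor Slug, stood at 25.3 FPKM in the primary tumor against 20.7 in the metastatic one, for a log2 ratio of -0.28. Of all expressed labels 70.2% were below SNAI2 in the primary tumor, so its transcript was well above the middle of the range. SNAI1, which encodes the related repressor Snail, stood at 4.21 and 2.33 FPKM, a log2 ratio of -0.65. Snail is a short-lived protein, so its transcript level is a partial view of it. Slug exceeded Snail in transcript level by 6.01 times in the primary tumor and 8.89 times in the metastatic one.

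ZEB1 showed the largest difference among the expressed mesenchymal members. ZEB1, a zinc-finger homeobox repressor of epithelial genes, stood at 9.53 FPKM in the primary tumor against 4.65 in the metastatic one, for a log2 ratio of -0.90 and a plain ratio of 2.05-fold. Of all expressed labels 11.3% had a lower log2 ratio. Its paralog ZEB2 stood at 14.7 and 9.92 FPKM, a log2 ratio of -0.52. ZEB2 thus exceeded ZEB1 in both tumors, by 1.54 times in the primary tumor and 2.13 times in the metastatic one. Summed over ZEB1, ZEB2, SNAI1 and SNAI2, factor transcripts stood at 53.7 FPKM in the primary tumor against 37.6 in the metastatic one. SNAI2 made up 47.1% and 55.1% of these sums, and the ZEB genes together 45.1% and 38.8%.

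TWIST1, a basic helix-loop-helix factor of mesoderm and neural crest, was low in both tumors. It stood at 0.108 FPKM in the primary tumor against 0.327 in the metastatic one, and 1.59% and 3.16% of expressed labels lay below these levels. It was the one mesenchymal member with the higher value in the metastatic tumor, at a log2 ratio of 0.26, or 1.03 with a pseudocount of 0.1 FPKM. Neither value reached the 1 FPKM minimum. How many fragments these values rest on is unknown.

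VIM was among the most abundant transcripts of both tumors. It stood at 4745 FPKM in the primary tumor against 4598 in the metastatic one, ranks 12 and 15 among the 57011 labels of the table. The log2 ratio was -0.05, the smallest difference among the expressed members. The other expressed mesenchymal structural gene, CDH2, stood at 55.3 and 41.3 FPKM, a log2 ratio of -0.41. CDH2 was second to VIM among the members in both tumors.

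On the epithelial side, CDH1 stood at 4.96 FPKM in the primary tumor against 10.1 in the metastatic one, for a log2 ratio of 0.90 and a plain ratio of 2.03-fold. Of all expressed labels 88.4% had a lower log2 ratio. ESRP2 stood at 2.76 and 7.49 FPKM, a log2 ratio of 1.17 and a plain ratio of 2.71-fold, and 93.9% of expressed labels had a lower log2 ratio. ESRP2 was thus the member with the largest difference in either direction on the log2(FPKM + 1) scale. N-cadherin transcripts exceeded E-cadherin transcripts in both tumors, by 11.2 times in the primary tumor and 4.09 times in the metastatic one.

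The paralog ESRP1 was nearly undetected. It stood at 0.0262 FPKM in the primary tumor against 0.0523 in the metastatic one. Many low values of the table stand to each other as small whole numbers. Among the 6509 rows whose values both lay between 0 and 1 FPKM, 41.9% matched such a ratio, with numbers no larger than 5 and a tolerance of 0.01%. The ESRP1 values had the ratio 1 to 2 within that tolerance, which is the ratio that 1 and 2 fragments would give if a fragment were worth the same FPKM in both columns. With read depth unknown, nothing is read from the difference in ESRP1. ESRP2 exceeded ESRP1 by 105 times in the primary tumor and 143 times in the metastatic one, ratios that carry the uncertainty of the ESRP1 value.

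At the 2-fold threshold, 1 of the 8 expressed members, ESRP2, was higher in the metastatic tumor, where 9.22% of expressed labels were. At the same threshold 0 of the 8 were lower, where 9.35% of expressed labels were. CDH1 and ZEB1 lay just inside the threshold with a pseudocount of 1 FPKM and just past it with 0.1. With 0.1 FPKM, 2 members were at least 2-fold higher, against 12.8% of expressed labels, and 1 was at least 2-fold lower, against 13.8%. These counts are too small to set the members apart from other genes. Fewer cells of a type and less RNA per cell cannot be told apart in these bulk libraries.

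**Figure D2:**
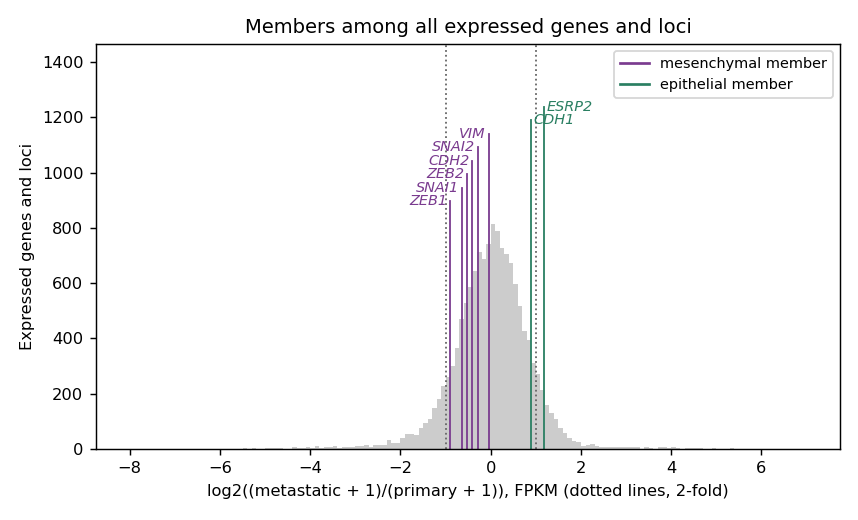
Histogram of log2 ratios (metastatic over primary, pseudocount 1 FPKM) of the 13811 expressed labels in bins of 0.1, with the 8 expressed members as vertical lines (purple, mesenchymal; green, epithelial). The 6 mesenchymal lines lie between -0.90 and -0.05, inside the 2-fold limit, and the green lines at 0.90 and 1.17 lie on the other side of 0.

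Ratios between members of 1 library do not depend on how that library was scaled. CDH1 and ESRP2 against each of the 6 expressed mesenchymal members give 12 such ratios, which share genes and are not independent. All 12 were higher in the metastatic tumor, by 2.10 to 5.56 times with a median of 3.48. This direction follows from the signs of the members given above and adds no support to them. The smallest shift was CDH1 over VIM and the largest ESRP2 over ZEB1. The values of ESRP2 and ZEB1 were in view when the members were proposed. The order of levels changed for 4 of the 12 pairs. CDH1 stood at 0.521 of the ZEB1 level in the primary and at 2.17 times that level in the metastatic tumor. ESRP2 over ZEB1 was 0.290 and 1.61, and ESRP2 over SNAI1 was 0.656 and 3.22. CDH1 over ZEB2 was 0.338 and 1.02, so the metastatic levels of CDH1 and ZEB2 were close to equal. Against SNAI2, CDH2 and VIM both epithelial genes remained the lower partner in both tumors. TWIST1 went the other way: CDH1 over TWIST1 was 45.7 in the primary tumor against 30.9 in the metastatic one.

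**Figure D3:**
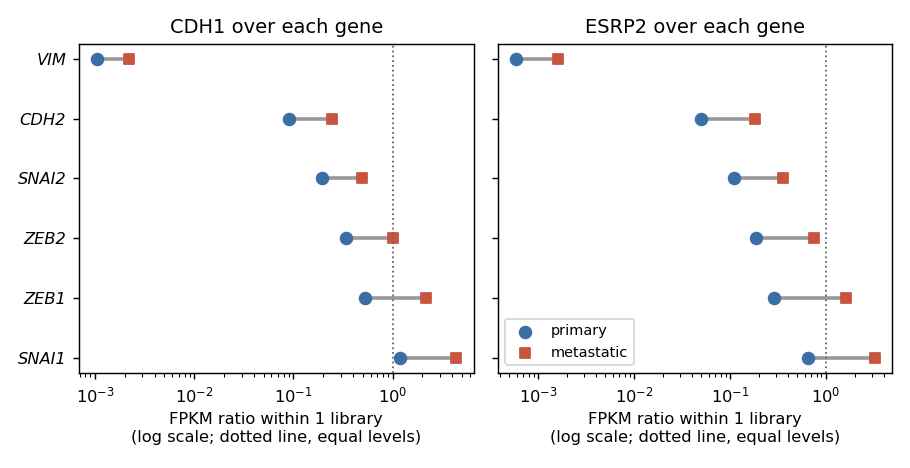
FPKM of CDH1 (left) and of ESRP2 (right) divided by that of each expressed mesenchymal member in the same library, on a log axis (blue circle, primary; red square, metastatic; 1 library each). Every red square lies to the right of its blue circle, and the CDH1 ratios to ZEB1 and ZEB2 and the ESRP2 ratios to ZEB1 and SNAI1 cross the dotted line of equal levels.

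Antisense genes named after ZEB1, ZEB2 and VIM were listed, and the sources used here do not say whether counting used strand. Their overlap with the members was not checked, since human gene coordinates were not used here. ZEB1-AS1 stood at 9.55 FPKM in the primary tumor against 8.83 in the metastatic one, a log2 ratio of -0.10. That was about the level of ZEB1 in the primary tumor (9.53 FPKM) and above it in the metastatic one (4.65 FPKM). VIM-AS1 stood at 14.9 and 12.1 FPKM, far below VIM. ZEB2-AS1 was listed in a locus with clone-named genes, at 0.717 and 0.516 FPKM. Reads from any overlap of ZEB1 and ZEB1-AS1 could not be separated without strand.

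The other genes of the pathway were read from lists made for each role. Beside each count below stands the same background, with 9.22% of expressed labels higher by 2-fold or more and 9.35% lower by as much. Of 15 other EMT factors 7 were expressed, 3 at least 2-fold lower and 0 higher, with a median log2 ratio of -0.34. FOXC2, a forkhead factor of mesenchyme, stood at 3.06 FPKM in the primary tumor against 0.109 in the metastatic one, and SOX9 at 25.7 and 11.9. TCF3, whose product is an E-box-binding partner of TWIST1, stood at 37.9 and 50.9 FPKM. These factors, like the expressed EMT factors among the members, were mostly lower in the metastatic tumor.

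Transcription factors that maintain the epithelial state were mostly lower in the metastatic tumor, unlike CDH1 and ESRP2. Of 14 such genes 8 were expressed, 3 at least 2-fold lower and 0 higher, with a median of -0.33. Of the 8, 6 had a log2 ratio below 0, which 47.7% of expressed labels had, and 2 had one above 0. KLF4 stood at 36.1 FPKM in the primary tumor against 9.50 in the metastatic one, ELF3 at 62.1 and 17.1, and the intestinal factor CDX2 at 8.30 and 3.42. GRHL2, which activates CDH1 in epithelia, was low at 0.0603 and 0.0258 FPKM. OVOL2, a repressor of ZEB1, was listed only in a locus merged with SNX5. Of 8 miR-200 and miR-205 loci, the 6 with a row of their own and the merged MIR205 locus were listed at 0 in both tumors. MicroRNA precursors are poorly captured by many RNA-seq libraries.

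Corepressors that ZEB and SNAI proteins recruit were mostly within 2-fold. Of 13 listed, 11 were expressed, 1 past 2-fold in each direction, and their median was 0.08 that turned to -0.09 with libraries rescaled to the same sum and to -0.01 by the 75th percentile. SMARCA4, the BRG1 chromatin remodeler, stood at 231 FPKM in the primary tumor against 519 in the metastatic one. RCOR1, which encodes the CoREST subunit, stood at 17.9 and 8.41 FPKM. The ZEB partners CTBP1 and CTBP2, chosen after their values were seen, stood at 45.5 and 48.7 FPKM and at 21.9 and 22.5. EZH2 stood at 20.7 and 27.1 FPKM.

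Catenin transcripts were abundant in both tumors. Of 14 genes of the adherens junction 10 were expressed, 0 past 2-fold in either direction, with a median of -0.30. CTNNA1, which links cadherins to actin, stood at 220 FPKM in the primary tumor against 136 in the metastatic one, and CTNNB1, which encodes beta-catenin, at 139 and 101. CTNNB1 exceeded CDH1 by 28.1 times in the primary tumor and 10.03 times in the metastatic one, while CDH2 stood at 0.397 and 0.408 of CTNNB1. JUP, which encodes plakoglobin, stood at 22.8 and 32.5 FPKM. CTNND1, the p120 catenin gene, lay in a locus merged with other genes and was not counted. Of 12 other cadherin genes 5 were expressed, 1 past 2-fold in each direction. CDHR2, a protocadherin of the intestinal brush border, stood at 5.75 and 13.0 FPKM and CDH10 at 2.73 and 0.257. The median of these 5 was 0.09, or -0.04 with libraries rescaled to the same sum.

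Epithelial junction and polarity genes that ZEB and SNAI factors are known to repress went both ways, 6 above 0 and 6 below among those expressed. Of 29 such genes 12 were expressed in rows of their own and 5 lay in merged loci. Of the 12, 2 were higher by 2-fold or more and 1 was lower by as much; the median was -0.18. CLDN4 stood at 2.30 FPKM in the primary tumor against 10.6 in the metastatic one, AP1M2, an epithelial clathrin adaptor subunit, at 13.8 and 50.7, and the polarity gene CRB3 at 1.49 and 3.76. CGN, which encodes cingulin of the tight junction, stood at 16.2 and 5.56 FPKM and the desmosome gene DSP at 45.8 and 24.1. EPCAM, an epithelial adhesion gene, stood at 62.5 and 85.5 FPKM, or 12.6 and 8.48 times CDH1.

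Expressed mesenchymal matrix and adhesion genes mostly lay on the same side as the expressed mesenchymal members. Of 23 listed 16 were expressed, 7 at least 2-fold lower, where 9.35% of expressed labels were, and 0 higher, with a median of -0.65. COL3A1 stood at 23.9 FPKM in the primary tumor against 1.07 in the metastatic one, MMP2 at 5.26 and 0.599, and COL1A2 at 474 and 149. FN1, which encodes fibronectin, went the other way at 396 and 566 FPKM. The list shares 7 genes with the fibroblast markers. Without them 11 were expressed, 3 at least 2-fold lower and 0 higher, with a median of -0.61. These still included the smooth muscle and pericyte marker TAGLN, and any part of stromal cells in this list was not tested.

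**Figure D4:**
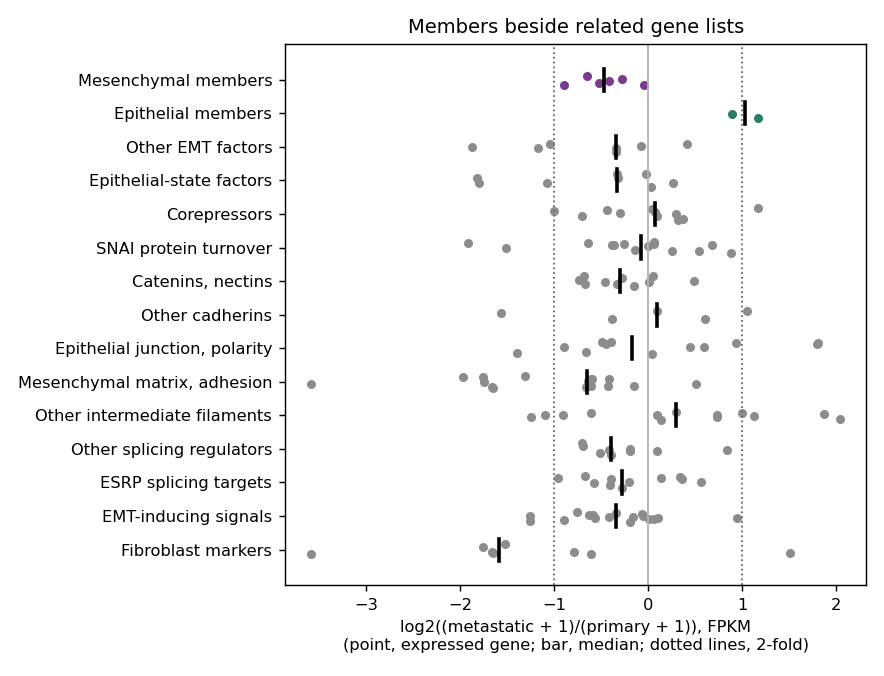
Log2 ratios (metastatic over primary, pseudocount 1 FPKM) of the expressed genes of each list, 1 point a gene, with the list's median as a black bar and 2-fold limits as dotted lines. Epithelial members have a median of 1.04, while epithelial-state factors have -0.33 and epithelial junction and polarity genes -0.18. Mesenchymal members have -0.47 and mesenchymal matrix and adhesion genes -0.65.

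Transcripts of keratins, the intermediate filaments of epithelia, were found beside those of VIM. Whether the same cells carried both cannot be told in these bulk libraries. KRT8 stood at 649 FPKM in the primary tumor against 1423 in the metastatic one, and KRT18 at 541 and 904. VIM exceeded KRT8 by 7.31 times in the primary tumor and 3.23 times in the metastatic one. Of 14 intermediate filament and linker genes other than VIM, KRT8 and KRT18 included, 13 were expressed, 4 of them higher by 2-fold or more and 2 lower by as much, and their median was 0.29. NEFM, a neurofilament gene, stood at 5.35 and 25.2 FPKM, the muscle gene DES at 1.40 and 7.82, and KRT7 at 146 and 61.2.

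Splicing regulators that act beside or against the ESRP proteins were within 2-fold. Of 15 listed 9 were expressed in rows of their own, 0 past 2-fold in either direction, with a median of -0.40. QKI, which promotes mesenchymal splice forms, stood at 21.6 FPKM in the primary tumor against 16.2 in the metastatic one, and RBM47, an epithelial splicing regulator, at 22.9 and 16.9. RBFOX2 was low at 0.433 and 0.204 FPKM, and HNRNPM stood at 176 and 316. Of 15 transcripts that ESRP proteins splice 11 were expressed, 0 past 2-fold, with a median of -0.28. CD44 stood at 116 and 87.3 FPKM, ENAH at 49.9 and 33.2, and TCF7L2 at 44.9 and 22.5. Gene totals do not show which splice forms were present.

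Markers of other cell types were read beside the mesenchymal members. Of 14 fibroblast markers 8 were expressed, 7 of them with a log2 ratio below 0, which 47.7% of expressed labels had. Of the 8, 5 were lower by 2-fold or more and 1 was higher by as much. The 13 with a row of their own summed to 561 FPKM in the primary tumor against 181 in the metastatic one. COL1A2 made up most of both sums, and without it they were 86.9 and 31.6. The marker that was higher by 2-fold or more was DCN, at 0.370 FPKM in the primary tumor against 2.89 in the metastatic one. The fibroblast markers COL5A1, LUM, THY1, POSTN and DPT were below 1 FPKM in both tumors. Of 10 smooth muscle and pericyte markers 8 were expressed, 5 with a log2 ratio above 0, which 51.8% of expressed labels had, and 3 below. They summed to 52.5 and 126 FPKM, or to 40.3 and 44.7 without MYL9, which stood at 12.2 and 81.5.

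Of 11 endothelial markers 3 were expressed, all with a log2 ratio below 0, which 47.7% of expressed labels had. The 11 summed to 27.2 and 5.89 FPKM, or to 8.05 and 4.31 without EGFL7, which stood at 19.1 and 1.58. CLDN5 stood at 5.73 and 1.41 FPKM. The defining endothelial genes PECAM1 and CDH5 were below 1 FPKM in both tumors, as were TIE1 at 0.0992 and 0.859 and VWF at 0.259 and 0.505. Of 8 mesothelial markers 2 were expressed, WT1 at 0.0477 and 2.65 FPKM and UPK3B at 1.78 in the primary tumor and listed at 0 in the metastatic one. The 8 summed to 2.24 and 2.88 FPKM, with LRRN4 and CALB2 listed at 0 in both. Leukocyte markers summed to 4.78 and 12.8 FPKM over 9 genes, or to 2.06 and 0.880 without LYZ, which stood at 2.72 and 12.0. CD3E, FCGR3A and AIF1 were listed at 0 in both tumors, PTPRC stood at 0.111 and 0.0403 FPKM, and CSF1R at 1.06 and 0.243. The host is mouse and the values were made on a human genome build; the treatment of mouse reads is not given in the sources used here. Any part of stromal cells in the levels of VIM, CDH2, ZEB1, ZEB2, SNAI1 and SNAI2 was not tested.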

How the data were processed

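The authors deposited 1 table of FPKM values with a column for each of 2 libraries, which the column names match to the sample titles. Per the submitters' processing notes, the human build GRCh38 and the tools STAR 2.7.6a, Cufflinks 2.2.1 and bcl2fastq 2.18.0.12 were used, in roles that the notes do not state. The annotation, the strand setting, the filters and what was done with mouse reads: not given in the sources used here. Mouse is the organism given by the labels. The 62573 rows were summed by label to 57011 labels (Python 3.11.15, pandas 2.3.3, numpy 2.4.6). A merged locus counted toward the background as 1 label and toward no listed gene. The ratio scale used a pseudocount of 1 FPKM, a minimum of 1 FPKM in at least 1 library, no rescaling and a 2-fold threshold. With 1 library a group no p-value was computed. The procedure was run on simulated data with planted changes larger than those of the expressed members, which does not test the values given here.

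The members and lists were chosen with earlier results of these data known, among them the values of ZEB1 and ESRP2. Named genes were all 10 members and, from each list, up to 5 expressed genes with the largest absolute log2 ratio and up to 2 with the highest FPKM, given in part, plus CTNNB1, CTNNA1, CTNND1, EPCAM, GRHL2, FN1, RBFOX2, QKI and EZH2. A gene that the rule takes is not reported here. OVOL2, CTBP1, CTBP2 and the cell type markers named singly were chosen after their values were seen. Alternatives were 3 scalings, a filter of 5 FPKM or none, pseudocounts of 0.1 and 0.5 FPKM, the highest row of a label, single-symbol rows and a 4-fold threshold. Human promoter and protein sequences were not used here.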

Additional observations from a re-analysis of the deposited data

How the results depend on the processing

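The 8 expressed members kept their sign under all 7 pseudocount, scaling and row alternatives, and so did TWIST1 and ESRP1. Taking the highest row of a label or single-symbol rows changed no value of a member. The median log2 ratio of mesenchymal members was -0.49 and -0.48 with pseudocounts of 0.1 and 0.5 FPKM, -0.41 both without a filter and with a filter of 5 FPKM, and -0.64, -0.50 and -0.56 after scaling to the same sum, by the median ratio and by the 75th percentile. For epithelial members it was 1.21 and 1.12 with pseudocounts of 0.1 and 0.5 FPKM, 0.90 without a filter, and 0.91, 1.0 and 0.95 with the same scalings. The difference of the medians was 1.70 and 1.60 with pseudocounts of 0.1 and 0.5 FPKM, 1.31 without a filter, 1.45 with a filter of 5 FPKM, and 1.55, 1.51 and 1.51 with the same scalings. The filter on low values acts through TWIST1 and ESRP1, which are added without it, and through SNAI1, which a filter of 5 FPKM removes. Members at least 2-fold higher numbered 2 with a pseudocount of 0.1 FPKM, when CDH1 joined ESRP2, and 0 at a 4-fold threshold. Members at least 2-fold lower numbered 1 with a pseudocount of 0.1 FPKM and 1 after scaling to the same sum, in each case ZEB1. No paired analysis was possible because each group held 1 library, and no replicate could be left out. Read depth is unknown, so no counting interval could be given, and the values of TWIST1 and ESRP1, below 1 FPKM in both libraries, are the least certain.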

Other observations

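Signals that induce EMT in other settings were also read from a list. Of 21 genes 17 were expressed, 2 at least 2-fold lower and 0 higher in the metastatic tumor, with a median log2 ratio of -0.34. HGF, the ligand of the receptor MET, stood at 1.55 FPKM in the primary tumor against 0.0673 in the metastatic one, and TGFB3 at 6.73 and 2.24. TGFB1 stood at 180 and 106 FPKM and the cytokine gene LIF at 106 and 56.3. SMAD2, which encodes a TGF-beta signal carrier, stood the other way at 50.1 and 97.5 FPKM.

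Genes that act on the stability of Snail protein were within 2-fold for the most part. Of 16 listed 14 were expressed in rows of their own, 2 at least 2-fold lower and 0 higher, with a median of -0.07. The kinase genes PRKD1 and PAK1 stood at 6.39 and 0.952 FPKM and at 4.05 and 0.769. PSMD14, a deubiquitinase of the proteasome, stood at 90.5 and 167 FPKM, the ubiquitin ligase gene FBXO45 at 7.64 and 12.8, and FBXO11 at 29.0 and 18.3. Protein levels were not measured.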
